A study of Rattus norvegicus with 20 samples.

Results

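The growth hormone and prolactin axis was followed in the arcuate nucleus of young female rats through 7 genes: Ghrh, Sst, Gal, Sstr1, Sstr2, Ghr and Prlr. They were chosen by name, as the probes whose gene name on the array is one of these symbols. These are 12 of the 30367 probes that are not controls, and all 12 passed the filter on dim probes, which left 19883 probes of 17086 genes. Expression was measured with two-colour Agilent rat arrays in 20 Sprague-Dawley females on postnatal day 15 (P15), 4 in each of 5 groups. SNS rats were born to mothers injected with saline, had no spasms and received saline. BNS rats were exposed before birth to betamethasone, a synthetic glucocorticoid given to the mother in 2 injections of 0.4 mg/kg on gestational day 15, had no spasms and received saline. BYS, BYA and BYP rats had the same prenatal betamethasone, and NMDA, an agonist of glutamate receptors, was injected to trigger infantile spasms at the ages of P12, P13 and P15. BYS rats were then treated with saline, BYA rats with ACTH and BYP rats with PMX53, an antagonist of the complement receptor C5ar1, on P13, P14 and P15 by the labels, while the methods start treatment on P12. The model thus has no group with spasms but without betamethasone, and no group given ACTH or PMX53 without spasms. SNS and BNS rats received no NMDA, so NMDA itself and the spasms cannot be told apart. The labels do not tie the rats to litters, so the p-values measure the spread between these samples, which may include littermates.

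The arcuate nucleus drives growth hormone release through Ghrh, the growth hormone-releasing hormone made by some of its neurons. Somatostatin (Sst) opposes that release at the pituitary and also acts on hypothalamic neurons, and Sstr1 and Sstr2 are G protein-coupled receptors that bind it. Growth hormone and prolactin feed back on the hypothalamus through Ghr and Prlr, cytokine-type receptors that signal through JAK2 and STAT5. Galanin (Gal) is a neuropeptide found in Ghrh neurons and in dopamine neurons of this nucleus, the latter being the cells that restrain prolactin release.

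Each array carried 2 samples of the same group, one labelled with Cy3 and one with Cy5, except that BYA 3 and BYA 4 shared theirs with samples of another series. No slide held more than 1 group, and BYA was spread over 2 slides, so slide and group cannot be told apart. Spots well above background made up a median of 62.4% (SNS), 75.5% (BNS), 79.4% (BYS), 65% (BYA) and 68.4% (BYP), and the median signal over background ran from 6.94 in SNS to 16 in BNS and BYS. The arcuate markers Agrp, Npy and Pomc were at mean log2 levels of 14.35, 15.19 and 14.68 in SNS, and all 11 arcuate markers were above background. Of 10 pituitary markers 4 were above background (Cga, Lhb, Tbx19 and Pitx1), and Gh1, Prl, Tshb, Fshb, Pou1f1 and Gnrhr were not. In a bulk sample of tissue, fewer cells of a type and less RNA per cell cannot be told apart.

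The values below are log2 fluorescence levels of 60-base probes, and a level says nothing of one gene against another. The probes that lie in coding sequence are shown, because the probes of a gene did not always move together. Of the Ghr probes below, the first read higher than SNS on average in every group exposed to betamethasone. The second read lower than SNS in BNS and was called in no comparison with SNS. The Sstr2 probe is 1 of 2 that separated BNS from SNS, although only the other, not printed, was called. Coordinates are those of build rn4 in the files, and the TAG in capitals is the stop codon of Ghr.
Gal A_64_P091940, chr1:205937849-205937908, minus strand: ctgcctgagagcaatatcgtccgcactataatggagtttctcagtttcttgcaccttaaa
Sstr2 A_64_P104583, chr10:103253642-103253701, plus strand: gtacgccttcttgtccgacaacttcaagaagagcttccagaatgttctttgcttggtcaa
Ghr A_44_P320858, chr2:52524230-52524289, minus strand: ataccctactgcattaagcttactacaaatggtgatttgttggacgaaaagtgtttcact
Ghr A_64_P041812, chr2:52497358-52497417, minus strand: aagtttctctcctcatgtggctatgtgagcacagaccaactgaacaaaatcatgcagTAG
Prlr A_44_P187181, chr2:59677666-59678170, plus strand: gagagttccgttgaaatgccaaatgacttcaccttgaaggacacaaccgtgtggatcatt
The span of the Prlr probe is longer than its 60 bases because the probe crosses an exon junction. The other probes lie at chr3:148027237-148027296 (A_64_P062965) and chr3:148028257-148028316 (A_64_P012661) for Ghrh, at chr11:79126157-79126216 (A_64_P067749) for Sst, and at chr6:78806638-78806697 (A_64_P090866) for Sstr1. The second probes of Gal (A_42_P614175, chr1:205936430-205936489) and Sstr2 (A_64_P022015, chr10:103254378-103254437) and the third of Ghr (A_43_P11817, chr2:52496746-52496805) complete the 12.

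Across all 10 pairs of groups, 1 of 70 tests of the 7 genes passed an adjusted p of 0.05 in limma, namely Sstr2, which fell in BNS against SNS. In that comparison 1 of 7 genes was called, or 14.3%, while 28.6% of all genes tested were called. In BYS against BNS, which compares NMDA and spasms with neither, none of the 7 was called at this threshold, with 0.0293% of all genes called, 5 in number. Nor was any called with ACTH (BYA against BYS, 0% of all genes, although 1379, or 8.07%, had an unadjusted p under 0.05) or with PMX53 (BYP against BYS, 0.0351%). None was called between the treatments (BYP against BYA, 0.158%), in BYA against BNS (0.117%) or in BYP against BNS (1.5%). Against SNS, none of the 7 was called in BYS (27.1% of all genes), BYA (31.3%) or BYP (28.9%). These 4 comparisons share the SNS samples. Among the 4 comparisons from BYS against BNS to BYP against BYA, the lowest adjusted p of the 7 was 0.234, for Sstr1 in BYP against BYA. The intervals leave room for changes that 4 rats a group could not resolve, since the 95% interval of a difference reached 0.18 on either side for Prlr and 0.54 for Sst on the log2 scale in BYS against BNS.

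**Figure D1:**
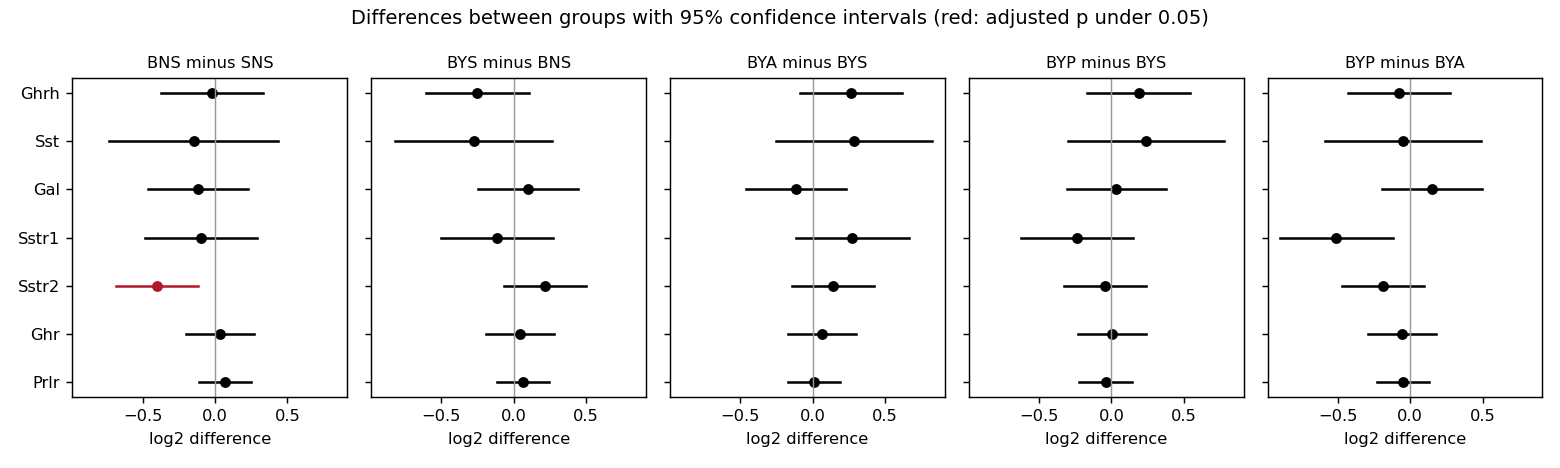
Log2 difference of each of the 7 genes (rows) in the 5 comparisons that follow the steps of the design (columns). Points are limma estimates and bars their 95% confidence intervals from 4 samples a group (3 for Sst in SNS), and red marks the 1 gene called, Sstr2 at -0.40 in BNS minus SNS.

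Ghrh, the releasing hormone, was lowest in BYS on average. Its log2 levels were 10.35, 10.51, 10.86 and 10.88 in SNS, 10.34, 10.71, 10.81 and 10.65 in BNS, and 10.14, 10.27, 10.23 and 10.86 in BYS. BYA rats had 10.49, 10.73, 10.58 and 10.76 and BYP rats 10.36, 10.86, 10.81 and 10.23. All but 1 of the BYS values lay below every value of SNS and BNS, but the highest BYS value lay among the highest of those groups, so the groups overlapped. The mean of BYS was lower than that of BNS by a log2 difference of -0.25 (SE 0.17, adjusted p = 0.862) and lower than that of BYA, with BYA minus BYS at 0.27 (SE 0.17, adjusted p = 0.721).

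The difference rested on 1 of the probes of Ghrh. With probe A_64_P062965, BNS gave 11.87, 12.50, 12.43 and 12.52 and BYS 11.16, 11.71, 11.62 and 12.34, a log2 difference of -0.62 (SE 0.28) with an adjusted p of 0.692 over all probes. All but 1 of the BYS values lay below the lowest BNS value. Probe A_64_P012661 gave 8.82, 8.92, 9.19 and 8.77 in BNS and 9.12, 8.82, 8.85 and 9.38 in BYS, a difference of 0.12 (SE 0.15) in the other direction. Over the 20 samples the levels of the 2 probes were not related (r = -0.0178).

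Sst, the inhibitory peptide, followed the same order of group means as Ghrh: SNS, BYA, BNS, BYP and BYS from high to low. Its single probe read 14.21, 15.58 and 15.25 in SNS, where SNS 1 was left out because its spot was marked as an outlier. BNS rats had 14.43, 14.67, 15.22 and 15.18, BYS rats 14.34, 14.27, 14.82 and 14.95, BYA rats 14.68, 14.91, 14.88 and 15.06, and BYP rats 14.70, 15.08, 15.05 and 14.51. The 5 groups overlapped, and the spread was widest in SNS (SD 0.72, n = 3) and narrowest in BYA (SD 0.16, n = 4). The log2 difference was -0.28 (SE 0.26, adjusted p = 0.927) in BYS minus BNS and -0.43 (SE 0.28, adjusted p = 0.265) in BYS minus SNS. The latter moved widely in both directions as each sample was left out, between -0.82 and -0.10. It was called in limma in 1 of 8 cases, without SNS 2, at -0.82 with an adjusted p of 0.0253. Samples that shared an array lay closer together for Sst, with a mean absolute difference of 0.252 over 8 pairs, against 0.503 over 19 pairs of the same group on different arrays.

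The levels of Ghrh and Sst varied together from sample to sample. After the dye effect was removed, Pearson's r was 0.83 (permutation p = 4e-05, adjusted p = 0.00084 over the 21 pairs of the 7 genes, n = 19) and Spearman's rho was 0.85 (permutation p = 1e-05, the smallest that 100000 resamples can give, adjusted p = 0.00021). Without the 2 samples farthest from the median of Ghrh, r was 0.81, and with the group means removed it was 0.79, so the relation was also present within groups. The 19 points share arrays in pairs, while the permutations treated them as independent. Over the means of the 11 arrays, some of which rest on 1 sample, r was 0.91. By single probes of Ghrh, r with Sst was 0.84 for A_64_P062965 and 0.24 for A_64_P012661. The other 20 pairs did not pass, the next being Ghr with Prlr (r = 0.46, permutation p = 0.0443, adjusted p = 0.465, n = 20). Over array means that pair had r = 0.79, and without the 2 samples farthest from the median of Ghr it had r = 0.24. Marker lists of the arcuate nucleus itself and of other cells varied with both peptides. The mean of 11 arcuate markers had r = 0.79 with Ghrh and 0.60 with Sst, that of 7 ependymal and tanycyte markers 0.55 and 0.43, and that of 4 pituitary markers 0.48 and 0.39. The mean of 8 oligodendrocyte markers, which ranged from 9.12 to 10.75 within SNS, had r = -0.59 and -0.63. Their part in the relation was not tested.

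**Figure D2:**
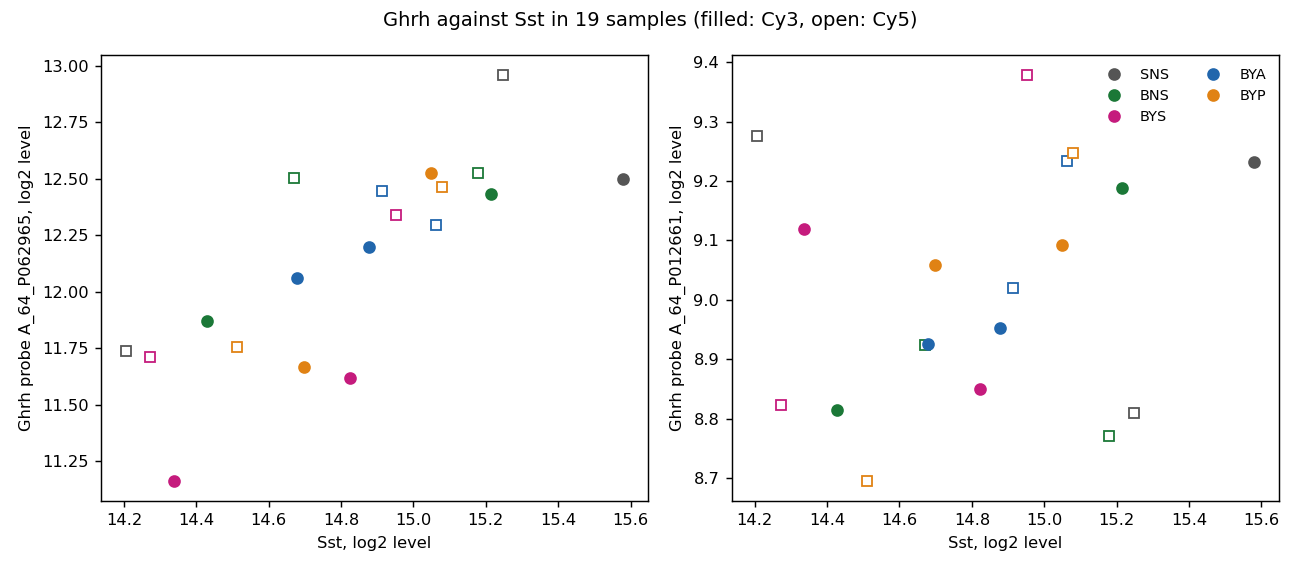
Log2 level of each Ghrh probe (panels) against the log2 level of Sst, each point 1 of 19 samples, coloured by group and filled for Cy3 or open for Cy5. Probe A_64_P062965 climbs with Sst (r = 0.84), while A_64_P012661 shows a loose cloud (r = 0.24).

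Gal, the galanin precursor, was the steadiest of the peptides between groups. Its levels were 13.19, 13.42, 13.97 and 13.90 in SNS, 13.63, 13.43, 13.56 and 13.39 in BNS, 13.42, 13.59, 13.74 and 13.66 in BYS, 13.21, 13.44, 13.59 and 13.70 in BYA, and 13.76, 13.26, 13.71 and 13.80 in BYP. All groups overlapped, and the group means lay between 13.48 in BYA and 13.63 in BYP. The largest difference among the 10 pairs was 0.15 (SE 0.16, adjusted p = 0.744), in BYP minus BYA. Its probes agreed over the 20 samples (r = 0.77). Within SNS the arrays differed, at a mean of 13.31 on one and 13.93 on the other.

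**Figure D3:**
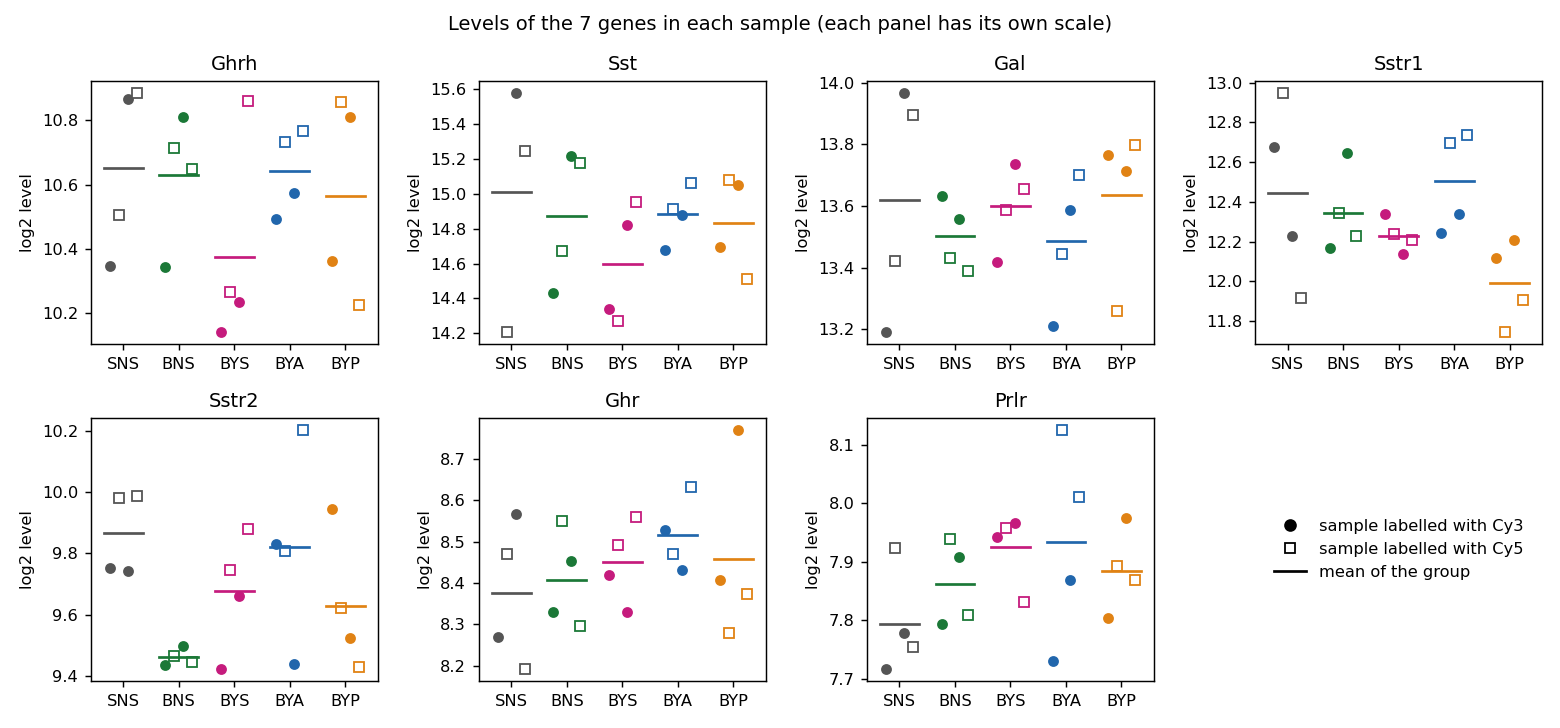
Log2 level of each of the 7 genes (panels, each with its own scale) in every sample by group, with filled circles for Cy3, open squares for Cy5 and a line at the group mean. The 4 BNS values of Sstr2 (9.44 to 9.50) lie below the 4 SNS values (9.74 to 9.99), and the only other pair of groups without overlap is BYA above BYP for Sstr1.

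Sstr2, a somatostatin receptor of pituitary cells and hypothalamic neurons, was lower after prenatal betamethasone alone. Levels were 9.75, 9.98, 9.74 and 9.99 in SNS and 9.44, 9.47, 9.50 and 9.45 in BNS, so the groups did not overlap, as was the case for 33% of all genes in this comparison. The log2 difference was -0.40 (SE 0.13, 95% interval -0.69 to -0.12), or 1.32-fold lower, with an adjusted p of 0.0322 in limma. The exact permutation p was 0.0286, the smallest that 4 against 4 samples can give, and follows from the lack of overlap. Both p-values treat the samples as independent, although these shared arrays in pairs. Genes called lower made up 13.5% of all genes in this comparison. The BNS values lay within a narrow band (SD 0.026, n = 4), tighter than those of the other groups (SD 0.22 in BYP, 0.31 in BYA, 0.19 in BYS and 0.14 in SNS).

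Sstr2 was not uniformly this low in the groups with spasms, which were other rats, and none of them was called against BNS. BYS rats had 9.42, 9.75, 9.66 and 9.88, BYA rats 9.83, 9.81, 9.44 and 10.20, and BYP rats 9.94, 9.62, 9.52 and 9.43, so that each of these groups overlapped both BNS and SNS. BYA minus BNS was 0.36 (SE 0.13, unadjusted p = 0.0158), which missed the threshold with an adjusted p of 0.274 in limma. BYS minus BNS was 0.21 (SE 0.13, adjusted p = 0.852) and BYA minus SNS -0.04 (95% interval -0.33 to 0.24).

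Both probes of Sstr2 separated BNS from SNS. A_64_P022015 gave 10.92, 11.20, 10.79 and 11.27 in SNS and 10.44, 10.61, 10.61 and 10.48 in BNS, a log2 difference of -0.51 (SE 0.15, adjusted p = 0.0198 over all probes in limma, where 13.4% of single probes were called lower). A_64_P104583, the coding probe printed above, gave 8.58, 8.77, 8.69 and 8.71 in SNS and 8.44, 8.33, 8.39 and 8.42 in BNS, without overlap, a difference of -0.29 (SE 0.15) that was not called (adjusted p = 0.134). The SNS spot was well above background in 3 of 4 samples. Of all single probes, 33.1% separated these groups. The same probe gave 8.59, 8.58, 8.63 and 8.74 in BYS, all above BNS, which 6.31% of single probes did in either direction (0.24, SE 0.15, adjusted p = 0.832). The call was sensitive to the handling of arrays and samples. With the array as a random block the adjusted p was 0.109, with the scanner's processed signals 0.225, and as each of the 8 samples was left out it ran from 0.0395 to 0.0821, below the threshold in 2 of 8 cases and above it without SNS 1, SNS 2, SNS 4, BNS 1, BNS 2 or BNS 4. With the processed signals, the difference of A_64_P022015 was -0.02. Fewer spots were well above background in SNS than in BNS by their medians, with overlapping ranges (51.5% to 74.9% and 67.7% to 81.2%), and the mean of 5 choroid plexus markers was 9.47 to 9.67 in SNS and 8.95 to 9.26 in BNS. The part of either in the difference was not tested.

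**Figure D4:**
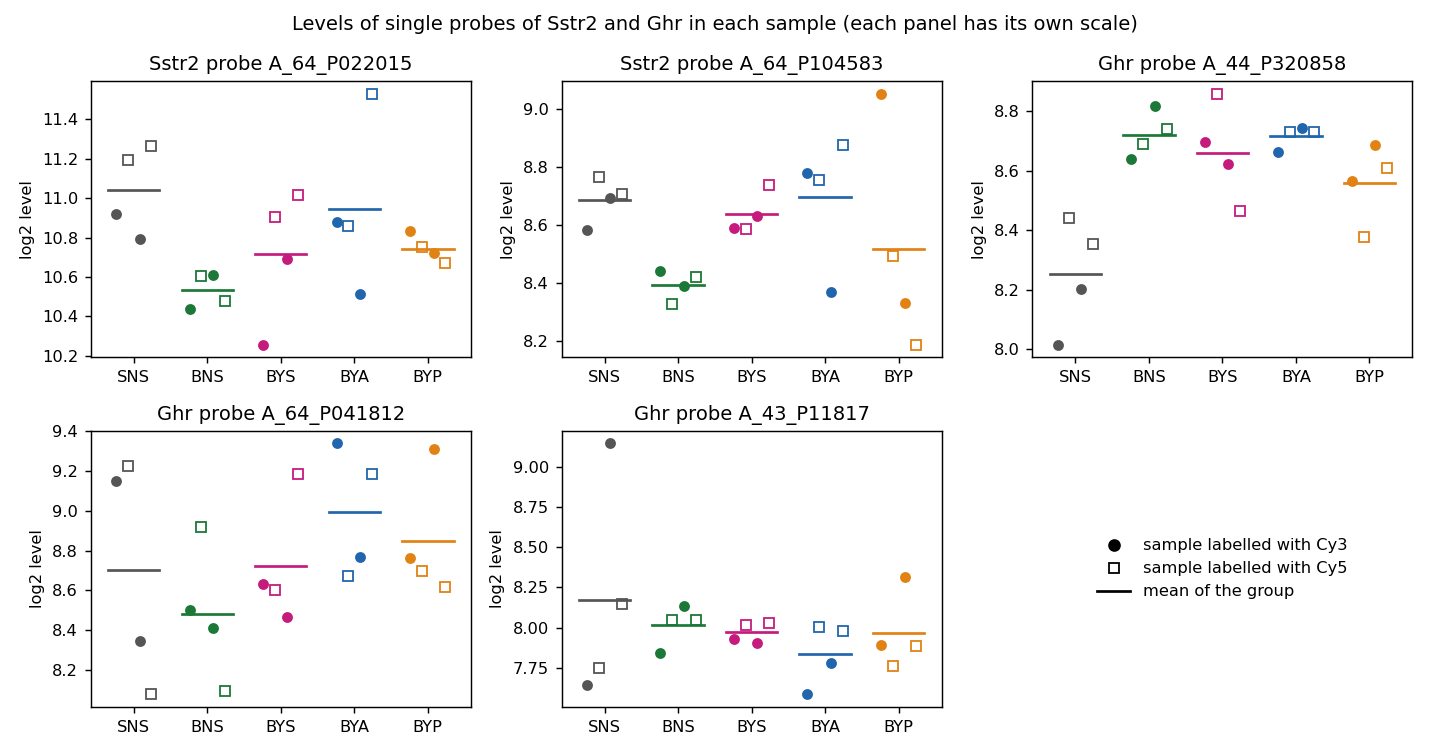
Log2 levels of the 2 probes of Sstr2 and the 3 probes of Ghr (panels, each with its own scale) in every sample by group, with filled circles for Cy3, open squares for Cy5 and a line at the group mean. Both Sstr2 probes put all BNS values below all SNS values, and the Ghr probe A_44_P320858 alone lies lower in SNS (8.02 to 8.44) than in BNS (8.64 to 8.82).

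The promoter of Sstr2 is shown because this was the 1 gene of the 7 that was called. The 250 bases before its annotated start, from RefSeq on build GRCr8, chr10:99163103-99163352 on the plus strand, hold a full cyclic AMP response element (CRE, TGACGTCA), in capitals here.
Sstr2 promoter: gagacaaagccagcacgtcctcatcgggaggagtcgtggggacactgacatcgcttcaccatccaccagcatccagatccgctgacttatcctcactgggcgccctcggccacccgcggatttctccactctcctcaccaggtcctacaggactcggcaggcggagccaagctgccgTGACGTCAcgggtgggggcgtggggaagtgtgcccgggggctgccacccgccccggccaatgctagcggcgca
The match begins 73 bases before the annotated start. The window from 250 bases before to 50 after the start was searched for TGACGTCA in all 8 promoters listed for the 7 genes, and Sst held the only other match, beginning 2 bases after its annotated start. Of 33469 rat promoters of the same length, 1.83% hold these letters. The shorter CRE motif TGACG, which the full element contains, was found on either strand in 4 of the 7 genes (21.2% of all promoters), the glucocorticoid receptor motif AGAACA in 3 (20.7%) and the STAT site TTCNNNGAA in 1 (8.87%). A match is a description of the sequence and was not measured as a bound site.

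Sstr1, another somatostatin receptor, was lowest in BYP. Its levels were 12.68, 12.95, 12.23 and 11.92 in SNS, 12.17, 12.34, 12.65 and 12.23 in BNS and 12.34, 12.24, 12.14 and 12.21 in BYS. BYA rats had 12.24, 12.69, 12.34 and 12.74, all above the 12.12, 11.74, 12.21 and 11.90 of the BYP rats. This separation, seen in 6.17% of all genes, corresponded to a log2 difference of -0.51 in BYP minus BYA (SE 0.19, 95% interval -0.90 to -0.12) with an unadjusted p of 0.0129 and an adjusted p of 0.234 in limma, so it was not called. BYP minus SNS was -0.45 (SE 0.19, adjusted p = 0.0753), and BYP minus BYS -0.24 (SE 0.19, adjusted p = 0.802). Another scaling changed these calls: when channels were scaled to a common median, BYP minus SNS was -0.98 (adjusted p = 0.0109) and BYP minus BYS -0.78 (adjusted p = 0.0458), where the median of all genes moved by -0.11 and -0.17. Within SNS, Sstr1 ran opposite to Sst, with array means of 12.81 where Sst was 14.21 and 12.07 where Sst was 15.41, but over all samples the pair had r = -0.16 (n = 19).

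Ghr, the growth hormone receptor, was not called between any groups as a mean of its 3 probes, with group means from 8.38 in SNS to 8.52 in BYA and the largest difference at 0.14 (SE 0.11, adjusted p = 0.356, BYA minus SNS). SNS rats had 8.27, 8.47, 8.57 and 8.19, BNS rats 8.33, 8.55, 8.45 and 8.30, and BYS rats 8.42, 8.49, 8.33 and 8.56. BYA rats had 8.53, 8.47, 8.43 and 8.63 and BYP rats 8.41, 8.28, 8.77 and 8.37, so all groups overlapped. The probes were not positively related (r = -0.15, -0.36 and -0.07 over the 20 samples), and the mean hid a difference in one of them.

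Probe A_44_P320858 of Ghr read higher in all 4 groups exposed to betamethasone. Its levels were 8.02, 8.44, 8.20 and 8.35 in SNS and 8.64, 8.69, 8.82 and 8.74 in BNS, where the spot was well above background in 2 of 4 and 4 of 4 samples. BYS rats had 8.70, 8.86, 8.62 and 8.47, BYA rats 8.66, 8.73, 8.74 and 8.73, and BYP rats 8.57, 8.38, 8.69 and 8.61. All values of BNS, BYS and BYA lay above those of SNS, a separation in either direction shared by 33.1%, 28% and 28.1% of single probes, and 1 BYP value fell within the SNS range. In limma over all probes, BNS was higher than SNS by 0.47 on the log2 scale (SE 0.10, adjusted p = 0.00308) and BYS by 0.41 (SE 0.10, adjusted p = 0.00812). BYA was higher by 0.46 (SE 0.10, adjusted p = 0.00295) and BYP by 0.31 (SE 0.10, adjusted p = 0.035), all against the same SNS rats. Since the probe passed the filter on dim probes through the groups where it read higher, and SNS lay partly at background, the sizes of these differences are uncertain and the calls are no independent support for a change in Ghr. Probes called higher made up 15.4%, 14.8%, 16.2% and 15.7% of all probes in these comparisons.

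The first 3 of these calls held as each sample was left out, with adjusted p-values up to 0.0329, while that of BYP was lost in 5 of 8 cases (up to 0.119). Leaving samples out changes neither the filter nor the dim signal in SNS, so it does not remove that limit. With the scanner's processed signals none of the 4 was called, at differences of 0.43 (adjusted p = 0.104), 0.31, 0.31 and 0.10. Scaling to a common median also lost the calls of BYS (adjusted p = 0.168) and BYA (adjusted p = 0.0712), and that of BYP was also lost with the array as a random block (adjusted p = 0.123) and with loess normalization within arrays (adjusted p = 0.0792). The other probes of Ghr were called in no comparison with SNS. A_64_P041812, which ends at the stop codon, gave 9.15, 9.23, 8.35 and 8.08 in SNS and 8.50, 8.92, 8.41 and 8.10 in BNS (-0.22, SE 0.26, adjusted p = 0.537). Its mean lay above that of SNS by 0.02 in BYS, 0.29 in BYA and 0.15 in BYP (SE 0.26 each). A_43_P11817 was well above background in 14 of 20 samples and differed by -0.15 in BNS minus SNS (SE 0.23, adjusted p = 0.63). On the transcript, A_44_P320858 lies at base 556, A_64_P041812 at base 2047 and A_43_P11817 at base 2660, so that the probe that was called lies nearest the 5′ end.

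Prlr, the prolactin receptor, was close to the limit of the arrays. Its probe, spotted 10 times on each array, was well above background in 13 of 20 samples, in all 4 only in BYS. Levels were 7.72, 7.92, 7.78 and 7.75 in SNS, 7.79, 7.94, 7.91 and 7.81 in BNS, 7.94, 7.96, 7.97 and 7.83 in BYS, 7.73, 8.13, 7.87 and 8.01 in BYA, and 7.80, 7.89, 7.97 and 7.87 in BYP. The group means spanned 7.79 in SNS to 7.93 in BYA and all groups overlapped. The largest difference was 0.14 (SE 0.09, 95% interval -0.04 to 0.32, adjusted p = 0.226), in BYA minus SNS. Scaling the channels to a common median turned BYP minus BYS from -0.04 to 0.75 (adjusted p = 0.0479).

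The order of the group means differed from gene to gene. SNS stood highest for Ghrh, Sst and Sstr2 and lowest for Ghr and Prlr. BYS stood lowest for Ghrh and Sst, BNS for Sstr2 and BYP for Sstr1. BYA stood highest for Sstr1, Ghr and Prlr. No pair of neighbours in any of these orders differed beyond the spread between samples, and apart from Sstr2 in BNS and SNS no pair farther apart did so either, at an adjusted p of 0.05.

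Over the samples, the genes most like Ghrh among all those tested were Sst (r = 0.83, n = 19), Trim35 (0.83) and Npy (0.82), the last a peptide of arcuate neurons that stimulate feeding. Those most like Sst were Ccdc60 (0.84), Tll1 (0.83) and Ghrh. Gal was most like Cldn3 (0.82), Qrich2 (0.81) and Trim66 (0.80), and Sstr1 most like Tox (0.87), Rapgefl1 (0.87) and Qrsl1 (0.85). Sstr2 was most like a transcript without a gene name (ENSRNOT00000031962, 0.85), Gpr17 (0.83), a receptor of oligodendrocyte precursors, and Ptgir (0.80). Ghr was most like Ptchd2 (0.78), E2f6 (0.78) and XM_214795 (0.76), and Prlr most like Samd8 (0.85), Lonrf2 (0.84) and Il6st (0.83), the shared receptor subunit of the interleukin-6 family. These are the highest of many correlations over samples that share arrays.

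Among 51 other genes of the axis, 49 were on the array and 41 were above background. In BNS against SNS, 8 of the 41 were called, 5 higher and 3 lower (19.5%, against 28.6% of all genes), with a median log2 difference of -0.05, against -0.04 over all genes. None of the 41 was called in BYS against BNS, BYA against BYS, BYP against BYS or BYP against BYA, where 3, 1, 2 and 3 had an unadjusted p under 0.05, as did 6.92%, 8.07%, 8.51% and 13.6% of all genes. Against SNS, 2 were called in BYS (4.88%, against 27.1% of all genes), 8 in BYA (19.5%, against 31.3%) and 7 in BYP (17.1%, against 28.9%).

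Of 13 ligands, receptors and binding proteins of the growth hormone and IGF system that were tested, Igf2 and Igfbp3 rose and Igf1r fell in BNS against SNS. Igf2, a growth factor made largely by meninges and choroid plexus in the brain, was 11.81 ± 0.63 in SNS and 13.09 ± 0.87 in BNS (mean ± SD, n = 4), a log2 difference of 1.28 (SE 0.40, adjusted p = 0.0223). Igfbp3, which binds IGFs, differed by 0.65 (SE 0.19, adjusted p = 0.0177) and Igf1r, the receptor of IGF-1, by -0.30 (SE 0.08, adjusted p = 0.0132). The receptors for somatostatin Sstr3, Sstr4 and Sstr5, the ghrelin receptor Ghsr, the Sst-related peptide Cort and Igf1 were not called, at 0.09, -0.12, 0.28, 0.22, -0.33 and -0.02. Ghrhr, Ghrl and Gh1 were not above background.

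Of 8 genes that control prolactin, Prlh, the prolactin-releasing peptide, rose in BNS from 8.06 ± 0.15 to 8.47 ± 0.14 (difference 0.42, SE 0.12, adjusted p = 0.0156). Th, the rate-limiting enzyme of dopamine synthesis, was 12.22 ± 0.43 in SNS and 12.38 ± 0.06 in BNS and was not called (0.16, SE 0.19, adjusted p = 0.558). The dopamine receptor Drd2 differed by -0.05 and the dopamine transporter Slc6a3 by 0.33, also not called. Prl and Vip were not above background. The galanin receptors Galr1 and Galr2 differed by -0.11 and 0.19 and were not called, and Galr3 was not above background.

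Of 12 genes of JAK and STAT signalling, Sh2b1, an adaptor of JAK2, fell (-0.53, SE 0.14, adjusted p = 0.011). Jak2 itself differed by -0.32 (SE 0.15, adjusted p = 0.108), and the mediators Stat5a and Stat5b by -0.14 and -0.05. Among 5 transcription factors of hypothalamic neuron development, Dlx1 rose in BNS from 10.87 ± 0.39 to 11.76 ± 0.16 (0.89, SE 0.15, adjusted p = 0.000365). Dlx1 was also called higher than SNS in BYS, BYA and BYP, in comparisons that share the SNS rats.

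**Figure D5:**
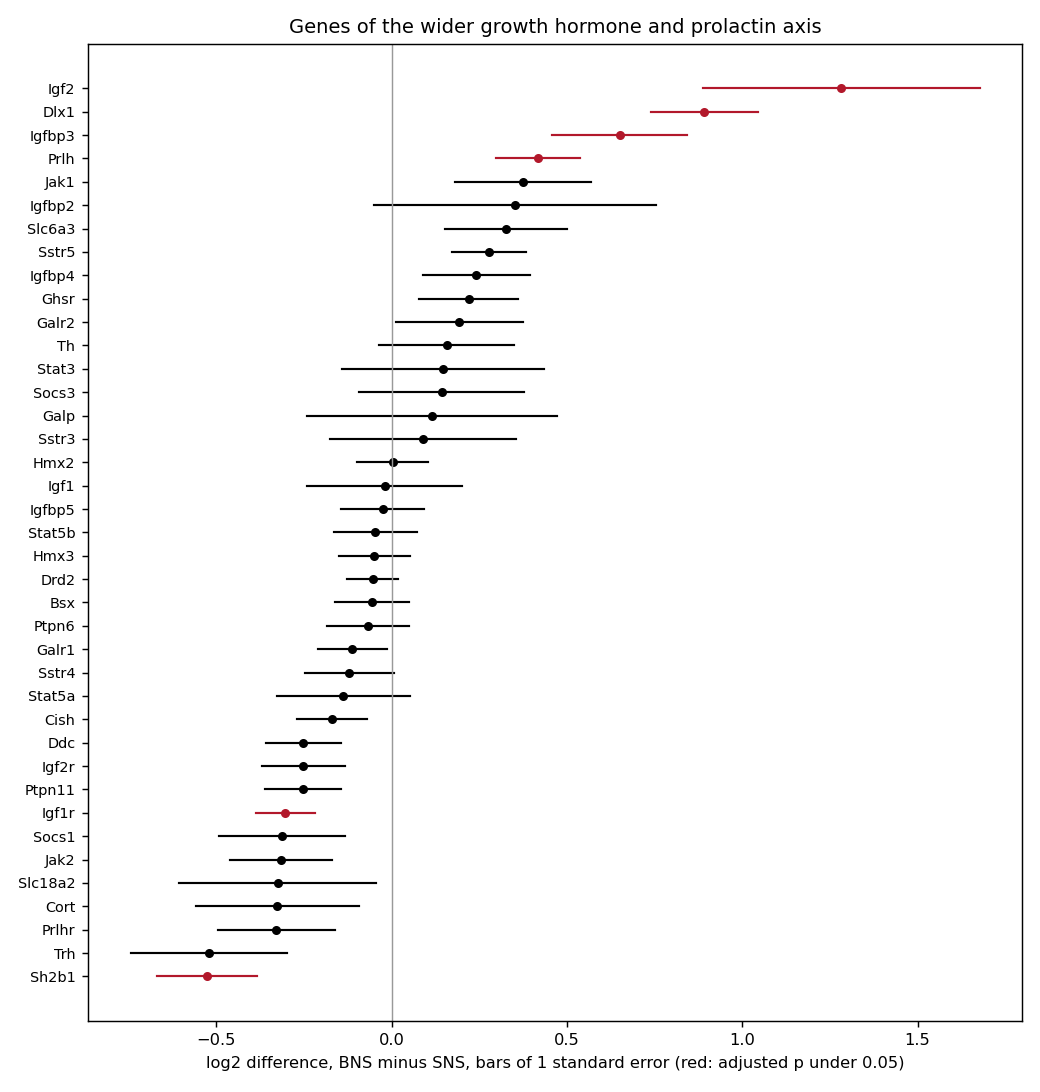
Log2 difference, BNS minus SNS, of 39 of the 41 further genes of the axis above background, ordered by size, with bars of 1 standard error from 4 samples a group and red for the 6 of them called in limma. Igf2 lies at 1.28 and Sh2b1 at -0.53, the ends of the range.

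Some markers of the tissue and of other cells were also called in BNS against SNS, where 28.6% of all genes were, and their part in the results was not tested. By list, 1 of 11 arcuate markers was called (Tbx3, lower), 1 of 4 of pituitary (Pitx1, lower), 1 of 6 of other hypothalamic neurons (Oxt, lower), 0 of 3 of the ventromedial nucleus, 2 of 5 of thalamus (Ntng1 higher, Tcf7l2 lower), 0 of 4 of telencephalon, 1 of 5 of choroid plexus (Aqp1, higher), 2 of 7 of ependyma and tanycytes (Rarres2 and Tmem212, higher), 0 of 8 of oligodendrocytes, 1 of 6 of microglia (Cx3cr1, lower), 1 of 5 of endothelium (Kdr, higher) and 1 of 2 of red blood cells (Alas2, higher). Ttr, the most abundant product of the choroid plexus, was 11.01 ± 1.13 in SNS and 9.88 ± 0.58 in BNS and was not called (adjusted p = 0.0892).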

How the data were processed

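Total RNA of the arcuate nuclei of 20 rats was profiled on 11 Agilent rat arrays on 6 slides. The authors deposited 1 Feature Extraction file per array (version 11.5.1.1 in the file headers, Agilent Feature Extraction 10.7.3.1 in the submitters' processing notes). The deposited mean signals and local backgrounds are intensities without normalization, and the deposited processed signals are intensities after the scanner software's background subtraction and dye normalization. The other columns used are deposited flags, which are no measurements. The 82 columns of samples of another series were not used. For BYA 3, the Cy3 label disagrees with the sample order in the raw file's name, and the label was used.

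Each channel was taken as a sample. Backgrounds were corrected with normexp (offset 50) and the 20 channels quantile normalized (limma 3.58.1, R 4.3.3). Spots marked as outliers (1.18%) were left out, including 18 of 600 spot values of the 7 genes, and spots of a probe were averaged. Probes stayed in where 1 group had 4 samples each with a share of 0.5 or more of the probe's spots well above background, and probes of a gene were averaged. The accessions of 18643 probes (61.4%) matched RefSeq, and the others kept the name in the files. All 20 samples were fitted together with the dye as covariate, and p-values were adjusted by Benjamini-Hochberg over all genes, or over all probes for single probes. Genes were called at an adjusted p under 0.05. The fit was tested on simulated data with independent noise in each sample, so that test does not cover the sharing of arrays. The number of arrays limits the precision. Shared replicate numbers did not mark pairs (mean correlation 0.0031, from -0.24 to 0.28). The 7 genes, the wider lists and the markers were chosen with earlier results of these data known. Named are the 7 genes, their receptors and ligands, genes of the wider list called in a step of the design (2 are not reported here), markers, and the 3 genes most correlated with each of the 7. Alternatives were other scalings and background corrections, other filters, the brightest probe, no dye term, array, slide or replicate number as a block, the 2 groups alone, the methods' t-test and each sample left out. Those of single probes were chosen after seeing the data.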

Additional observations from a re-analysis of the deposited data

Results flagged for a closer look

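Of 34 sets of 4 samples of a gene in a group, 1 held a sample that stood apart by Dixon's test at the 95% level, which chance gives in about 1 of 20 sets. This was Gal in BYP 2, at a log2 level of 13.26, while the nearest of the other BYP samples was at 13.71. The gap was 0.84 of the range of the group, just past the critical value. The reason for this value was not tested.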

How the results depend on the processing

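The fall of Sstr2 in BNS kept its direction in all 22 alternatives and its call in 11 of 14, or in 2 of 8 with a sample left out. The 11 include the methods' t-test taken at an unadjusted p under 0.05. They also include the fit without the filter on dim probes, which left the levels of the 7 genes unchanged because all their probes had passed. The number of the 7 genes called in BNS minus SNS was thus 1 or 0. That number was 0 with the processed signals, with the array as a random block and under the methods' t-test after Benjamini-Hochberg, and 0 to 1 as samples were left out. Other counts moved from 0: when channels were scaled to a common median, 2 genes were called in BYP minus BYS (Prlr and Sstr1) and 1 in BYP minus SNS. With the slide as a random block or the unadjusted t-test, 1 was called in BYP minus BYA (Sstr1), and with the processed signals or the slide as a block, 1 in BYP minus SNS (Sstr1). The estimated correlation was 0.37 within arrays, which the main fit did not model, and -0.13 within slides. Slide lies within group, so calls gained with the slide as a block say nothing of slide effects. Leaving out samples gave 0 to 1 in BYS minus SNS (Sst without SNS 2) and in BYP minus SNS (Sstr1 without SNS 4, Sstr2 without BYP 1). Over all genes, the 4884 calls of BNS minus SNS (28.6%) became 2649 with a common median and 2329 with the processed signals. They became 2590 and 8142 with array and slide as random blocks, and 2529 under the t-test after Benjamini-Hochberg. Among probes above background in all 20 samples fewer genes were tested, and 3214 of 11060 were called, a similar share (29.1%). Prlr in BYP minus BYS reversed to 0.75 under the same scaling to a common median. With the replicate number as a block (replicate block), 1 gene was called in BNS minus SNS and 0 in the other 9 comparisons, as without it. Over all 7 genes and 10 comparisons, the sign of the difference changed in 48 of 970 values under the alternatives, the Prlr reversal among them, and in 66 of 560 with a sample left out. The causes were not tested. Dim signal limits Prlr and 2 of the 3 Ghr probes.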
